A study of Homo sapiens with 8 samples.

Results

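The 33 genes described here encode iron-dependent oxygenases that use molecular oxygen and 2-oxoglutarate: the JmjC histone demethylases (KDM2 to KDM7, PHF2, PHF8, JMJD1C), other JmjC proteins (KDM8, JMJD4, JMJD6, JMJD8, HSPBAP1), the TET enzymes, the ALKBH family with FTO, and the hydroxylases OGFOD1, P4HTM and ASPH. Members were chosen by name, as the demethylases and related oxygenases outside the hydroxylation of HIF and of collagen. All 33 had 1 row each in a table of 60332 genes, and all 33 were among the 15372 genes that reached 1 FPKM (fragment counts corrected for transcript length and for library size) in at least 2 of the 8 libraries and were therefore tested. RNA-seq was done on SK-N-MC, an established Ewing sarcoma cell line that carries the EWSR1::FLI1 fusion. Every cell population expressed lentiviral dCas9-KRAB, a non-cutting Cas9 joined to the KRAB repressor domain, and had been selected with puromycin. Control cells carried the empty dCas9-KRAB vector. The eKD1 and eKD2 cells carried dCas9-KRAB with one of 2 guides directed at the GGAA microsatellite enhancer of LOXHD1, and each was a polyclonal pool, not a clone. The 4 groups had 2 libraries each: control cells in normoxia, and control, eKD1 and eKD2 cells after 16 h in 1% O2. No enhancer-silenced cells in normoxia were analysed here, so an effect of silencing that does not need low oxygen and one that does cannot be told apart.

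JmjC demethylases remove methyl groups from histone lysines by hydroxylating the methyl carbon, a reaction that consumes oxygen and 2-oxoglutarate and releases formaldehyde. The TET enzymes oxidise 5-methylcytosine in DNA, and the ALKBH enzymes and FTO take alkyl groups off DNA and RNA bases by the same chemistry. Because oxygen is a substrate, the activity of several of these enzymes drops when oxygen is scarce, and some of their genes are known targets of the hypoxia-inducible factors. The data below are levels of mRNA and do not measure enzyme activity.

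LOXHD1, the gene whose enhancer was silenced, had 156 and 169 FPKM in normoxic and 93.0 and 91.1 FPKM in hypoxic control cells. It was at 17.3 and 15.0 FPKM in the eKD1 libraries and at 11.7 and 11.8 FPKM in those of eKD2, below every control library. The column totals ran from 865107 to 1041457 FPKM, lowest in the 2 normoxia libraries and highest in the 2 control hypoxia libraries. The number of reads per library is not stated, so relative depth was estimated from low values of genes with a single transcript. The most common ratio of these values between a library and the first control hypoxia library was taken. It put the depth of the libraries between 55.7% and 100% of the deepest. By this estimate the control hypoxia libraries were the deepest, at 100% and 96.1%, and the normoxia libraries were at 76.0% and 55.7%. The eKD1 libraries were at 82.7% and 61.2% and those of eKD2 at 77.6% and 77.1%. The 7 Ewing sarcoma markers (CD99, NKX2-2, NR0B1, STEAP1, LIPI, FLI1 and CCK) all reached 1 FPKM and summed to 1051 to 1265 FPKM. The sum hides changes of single markers. In control hypoxia against normoxia 6 of the 7 passed, 2 higher and 4 lower, where 32.2% of all genes tested passed. The largest changes were falls of LIPI (log2 change -2.17), NR0B1 (-0.87) and STEAP1 (-0.79). What these changes contribute to the results was not tested. Of 4 leukocyte markers CD3E was listed at 0 in every library and 3 reached 1 FPKM. Their summed level was 24.8 to 25.3 FPKM in control normoxia, 8.44 to 11.8 FPKM in control hypoxia, 13.2 to 15.0 FPKM in eKD1 and 17.1 to 18.6 FPKM in eKD2, mostly PTPRC. Their part in the results was not tested. The 2 endothelial markers in the table never summed to more than 0.845 FPKM, the 3 epithelial markers summed to 3.72 to 8.05 FPKM with KRT5 at 0 throughout, and PDGFRA, 1 of 5 fibroblast markers, was below 1 FPKM in every library. The fibroblast sum was 289.6 and 287.6 FPKM in normoxia and 369.4 and 382 FPKM in hypoxia of control cells, 369.7 and 354.5 FPKM for eKD1 and 341.8 and 328.6 FPKM for eKD2. COL1A1 and COL1A2 passed as higher in control hypoxia than in normoxia (log2 changes of 0.63 and 0.77), and the part of these markers in the results was not tested.

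In hypoxic control cells some members rose and others fell. KDM3A, ASPH, KDM4B, ALKBH5 and KDM4A rose, while KDM8, HSPBAP1, ALKBH2, TET3, KDM4D, JMJD8, JMJD4, FTO and KDM2A fell. Thus 14 of the 33 members passed an adjusted p of 0.05 (limma on log2(FPKM + 1), Benjamini-Hochberg adjustment over all genes tested), 5 higher and 9 lower. Over all genes tested 32.2% passed, 16.2% higher and 16% lower. Scaled to equal FPKM totals, 4 members rose and 13 fell. There 5510 of the 15372 genes tested passed, and 28.4% of all genes called were higher in place of 50.3%. Of the genes with a mean of at least 5 FPKM 39.4% passed, and 12 of the 29 members at that level passed there, so the number of members called was close to what genes of similar abundance showed. The median log2 change was -0.16 over the members and 0.01 over all genes tested. The 2 hypoxia libraries lay above both normoxia libraries for 12 members, below both for 17, and overlapped them for 4, where 35.9% of all genes tested lay above and 34.5% below. Fits are on log2(FPKM + 1), a scale that understates the change of weakly expressed genes. The study describes the 2 libraries of a group as biological duplicates, the labels do not say how their cultures were kept apart, and the p-values measure the spread between these libraries.

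**Figure D1:**
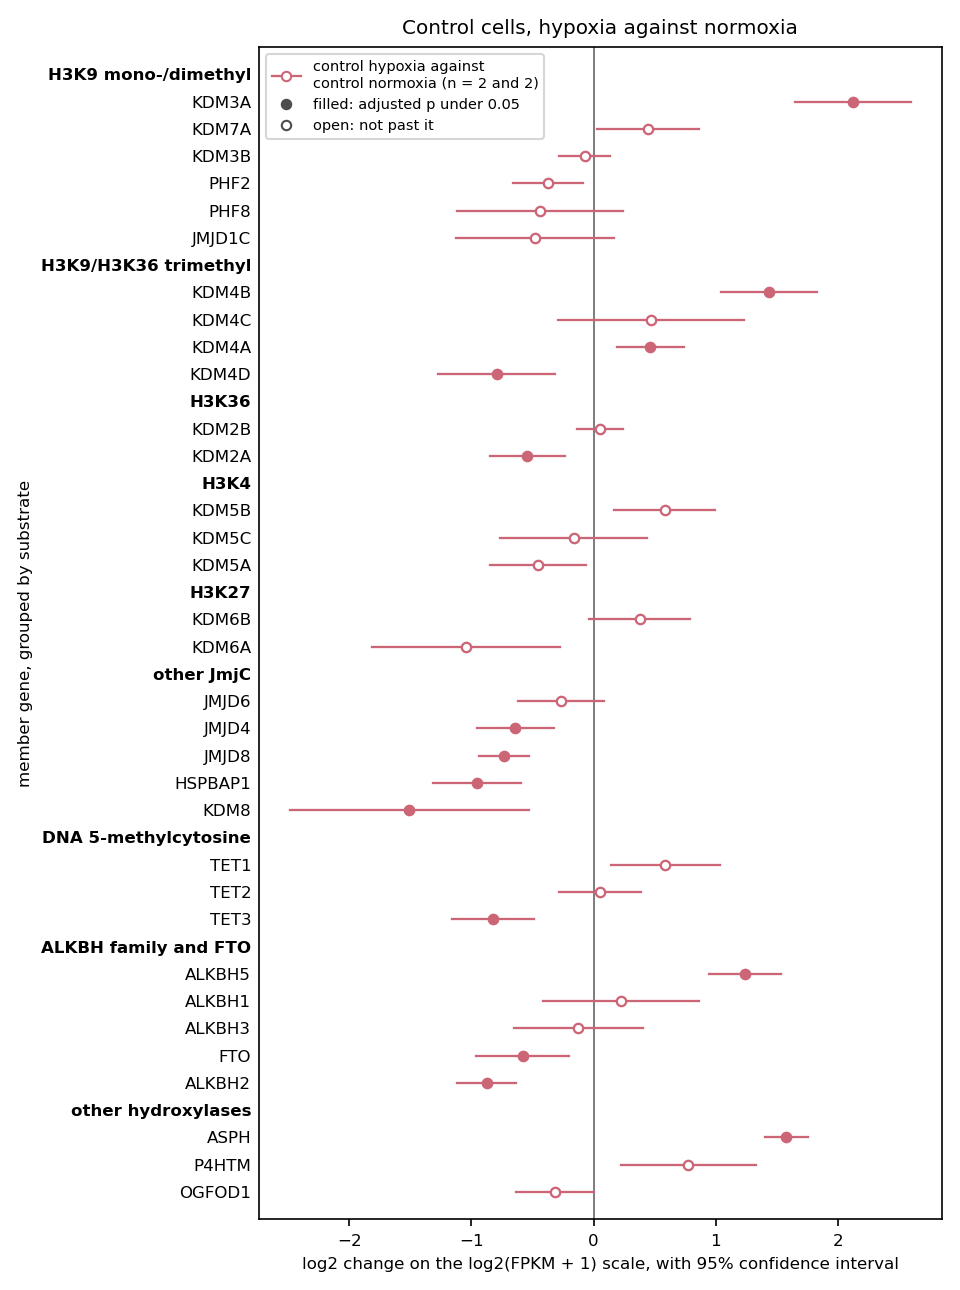
Change of the 33 members in control cells, hypoxia against normoxia (2 libraries each), grouped by substrate. The horizontal axis is the difference on the log2(FPKM + 1) scale, points are limma estimates, lines their 95% confidence intervals, and filled points passed an adjusted p of 0.05. The 5 filled points right of 0 are KDM3A, KDM4B, KDM4A, ALKBH5 and ASPH, and 4 of the 9 on the left are in the group of other JmjC proteins.

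Among the enzymes that act on mono- and dimethylated H3K9, a mark of silent chromatin, KDM3A (ENSG00000115548.16_2, chr2:86667770-86719839 in GRCh37) showed the largest rise of any member. Its level was 27.1 and 35.4 FPKM in normoxia and 149.8 and 127 FPKM in hypoxia, and no hypoxia library came near a normoxia library. The log2 change was 2.12 ± 0.17 (SE, n = 2 and 2, limma adjusted p = 0.00832). It was the most abundant member in hypoxia, after ranking 10 of 33 in normoxia. Its closest paralog KDM3B, which removes the same marks, had 37.3 and 35.5 FPKM in normoxia and 33.9 and 35.3 FPKM in hypoxia. The groups of KDM3B did not overlap but were separated by less than 1 FPKM, and the 95% interval of its log2 change was -0.28 to 0.14. The ratio of the KDM3A level to the KDM3B level therefore went from 0.726 and 0.998 in the normoxia libraries to 4.42 and 3.61 in the hypoxia libraries. The other 4 enzymes of this group did not pass the test. KDM7A, a PHD finger demethylase, had a log2 change of 0.45, while the related PHF2 and PHF8 had -0.38 and -0.44 and JMJD1C, the third KDM3 family member, had -0.48.

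The KDM4 enzymes remove the trimethyl mark from H3K9, and KDM4A, KDM4B and KDM4C also from H3K36. KDM4B (ENSG00000127663.14_3, chr19:4969124-5153609) was read at 16.6 and 13.1 FPKM in normoxia and at 42.9 and 40.2 FPKM in hypoxia. It rose by a log2 change of 1.44 ± 0.14 (SE, n = 2 and 2, limma adjusted p = 0.00997). KDM4A (ENSG00000066135.12_2) passed with a smaller log2 change of 0.46 ± 0.10 (SE, adjusted p = 0.0369), from 34.3 and 38.2 FPKM to 47.9 and 52.8 FPKM. That call was lost when the libraries were scaled to equal totals, where its log2 change was 0.23, and without the variance trend. A further annotated gene on the same strand covers 40.2% of the exon bases of KDM4A, and its reads cannot be told apart there. In normoxia the ratio of the KDM4B level to the KDM4A level was 0.483 and 0.344, and in hypoxia it was 0.896 and 0.762. KDM4D (ENSG00000186280.6_3, chr11:94706873-94732683), a paralog without the reader domains of KDM4A, KDM4B and KDM4C, fell. It was weakly expressed at 1.65 and 1.95 FPKM in normoxia and 0.675 and 0.550 FPKM in hypoxia, a log2 change of -0.79 ± 0.17 (SE, adjusted p = 0.0386). It passed the filter through the groups in which it was higher. KDM4C had 4.55 and 7.76 FPKM in normoxia and 8.18 and 9.10 FPKM in hypoxia, and its interval of -0.30 to 1.23 did not separate it from 0.

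KDM2A (ENSG00000173120.14_2, chr11:66886734-67025553), which binds unmethylated CpG islands and removes mono- and dimethyl marks from H3K36, was at 58.1 and 69.5 FPKM in normoxia and at 43.3 and 43.4 FPKM in hypoxia. Both hypoxia libraries lay below both normoxia libraries, and the log2 change was -0.54 ± 0.11 (SE, adjusted p = 0.034). Its size rested in part on 1 library, since without the second normoxia library the log2 change was -0.41 and without the first it was -0.67. KDM2B, its paralog and a part of a variant Polycomb complex, had a log2 change of 0.06 with an interval of -0.13 to 0.24. None of the 3 H3K4 demethylases passed. KDM5B had 32.2 and 26.4 FPKM in normoxia and 47.9 and 40.8 FPKM in hypoxia (log2 change 0.58, adjusted p = 0.0531), whereas KDM5A had 26.8 and 30.3 FPKM and then 18.5 and 22.6 FPKM (log2 change -0.46, adjusted p = 0.0789), and KDM5C overlapped between the groups. The X-linked H3K27 demethylase KDM6A was at 17.5 and 13.6 FPKM in normoxia and 8.84 and 5.45 FPKM in hypoxia. Its log2 change of -1.04 had a wide interval of -1.81 to -0.27 and did not pass either (adjusted p = 0.0578). KDM6B, the inducible H3K27 demethylase, had a log2 change of 0.38. In a single fit of all 8 libraries, which shares their spread, 20 members passed against 37.9% of all genes, adding KDM5B, KDM6A, PHF2, TET1, P4HTM and OGFOD1 to the 14. Of these, TET1 had passed the filter only through the hypoxic groups, in which it was higher.

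All 5 of the other JmjC proteins were lower in both hypoxia libraries than in both normoxia libraries, and 4 of the 5 passed. Of all genes tested 34.5% were lower in that way and 16% fell, so this describes a small group and is no test of it. KDM8 (also JMJD5, ENSG00000155666.11_2, chr16:27214829-27233089), a JmjC protein with arginyl hydroxylase activity, was at 7.46 and 8.07 FPKM in normoxia and 3.19 and 1.27 FPKM in hypoxia. The 2 hypoxia libraries differed more from each other than the 2 normoxia libraries did. This was the largest fall among the members, with a log2 change of -1.51 ± 0.35 (SE, adjusted p = 0.0446), and it was -1.06 without the second hypoxia library and -1.95 without the first. HSPBAP1 (ENSG00000169087.10_2, chr3:122458846-122512678), which binds a small heat shock protein, went from 13.9 and 12.8 FPKM to 6.02 and 6.80 FPKM, a log2 change of -0.95 ± 0.13 (SE, adjusted p = 0.0159). JMJD8 (ENSG00000161999.11_3, chr16:731670-734528), a JmjC protein of the endoplasmic reticulum lumen, was the second most abundant member in normoxia with 72.8 and 77.2 FPKM and had 43.3 and 46.1 FPKM in hypoxia, a log2 change of -0.73 ± 0.07 (SE, adjusted p = 0.01). JMJD4 (ENSG00000081692.12_2, chr1:227918126-227923112), which hydroxylates a translation termination factor, went from 17.7 and 19.3 FPKM to 11.0 and 12.1 FPKM, a log2 change of -0.64 ± 0.11 (SE, adjusted p = 0.0258). The library kit does not mark strand. Exons of STUB1 on the opposite strand cover 37.5% of the exon bases of JMJD8, and those of SNAP47 cover 53.8% of JMJD4, so reads of these genes and their partners cannot be told apart where they overlap. JMJD6, a lysyl hydroxylase of splicing factors, was at 22.0 and 19.7 FPKM in normoxia and 15.9 and 18.4 FPKM in hypoxia, and its log2 change of -0.27 did not pass (adjusted p = 0.18).

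The nucleic acid demethylases went both ways. ALKBH5 and FTO are the enzymes known to remove the N6-methyl group of adenosine from mRNA, and they moved in opposite directions. ALKBH5 (ENSG00000091542.8_2, chr17:18086392-18113268) was read at 22.0 and 18.8 FPKM in normoxia and 49.7 and 49.2 FPKM in hypoxia, a log2 change of 1.24 ± 0.10 (SE, adjusted p = 0.00852). FTO (ENSG00000140718.20_3, chr16:53735604-54192424) was at 20.8 and 25.1 FPKM in normoxia and 15.8 and 14.2 FPKM in hypoxia, with no overlap of the groups and a log2 change of -0.58 ± 0.14 (SE, adjusted p = 0.0458). The FTO call was lost without the variance trend, and without the second normoxia library its log2 change was -0.45 against -0.71 without the first. The ratio of the ALKBH5 level to the FTO level was 1.05 and 0.749 in normoxia and 3.15 and 3.48 in hypoxia. ALKBH2 (ENSG00000189046.10_2, chr12:109525993-109531436), which reverses alkylation damage in double-stranded DNA, was the most abundant member in normoxia with 73.0 and 80.6 FPKM. It had 39.9 and 42.9 FPKM in hypoxia, where it ranked 12 of 33, and the log2 change was -0.88 ± 0.09 (SE, adjusted p = 0.00998). ALKBH3, which acts on single-stranded DNA and RNA, and ALKBH1 overlapped between the groups. TET3 (ENSG00000187605.15_2, chr2:74212037-74335303) fell from 12.3 and 11.6 FPKM to 6.05 and 6.54 FPKM, a log2 change of -0.83 ± 0.12 (SE, adjusted p = 0.0184). TET2, the most abundant TET gene, had 15.9 and 13.8 FPKM and then 15.8 and 14.9 FPKM, with an interval of -0.28 to 0.38. TET1 was listed below 1 FPKM in both normoxia libraries, at 0.824 and 0.964 FPKM, and had 1.84 and 1.84 FPKM in hypoxia (log2 change 0.59, adjusted p = 0.0617). It passed the filter only through the hypoxic groups.

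Of the remaining hydroxylases, ASPH (ENSG00000198363.17_3, chr8:62413115-62627199), the aspartyl and asparaginyl hydroxylase of EGF-like domains, had 41.52 and 40.96 FPKM in normoxia and 128.7 and 121.5 FPKM in hypoxia. The groups were far apart relative to their spread, with a log2 change of 1.58 ± 0.06 (SE, adjusted p = 0.00618), and ASPH was second only to KDM3A in hypoxia. The locus also encodes junctin-type proteins without the catalytic domain, and gene-level values do not separate them. P4HTM, a transmembrane prolyl hydroxylase of the endoplasmic reticulum, was at 1.47 and 1.99 FPKM in normoxia and 4.06 and 3.27 FPKM in hypoxia (log2 change 0.78, adjusted p = 0.054). OGFOD1, which hydroxylates a ribosomal protein, had a log2 change of -0.32 and did not pass. Among the 14 members called, KDM2A, FTO, KDM4A, KDM8, KDM4D and JMJD4 did not pass when no filter on low values was used, which added weakly expressed genes to the adjustment. KDM2A and KDM8 also did not pass without the variance trend, nor KDM8 with a pseudocount of 0.1.

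**Figure D2:**
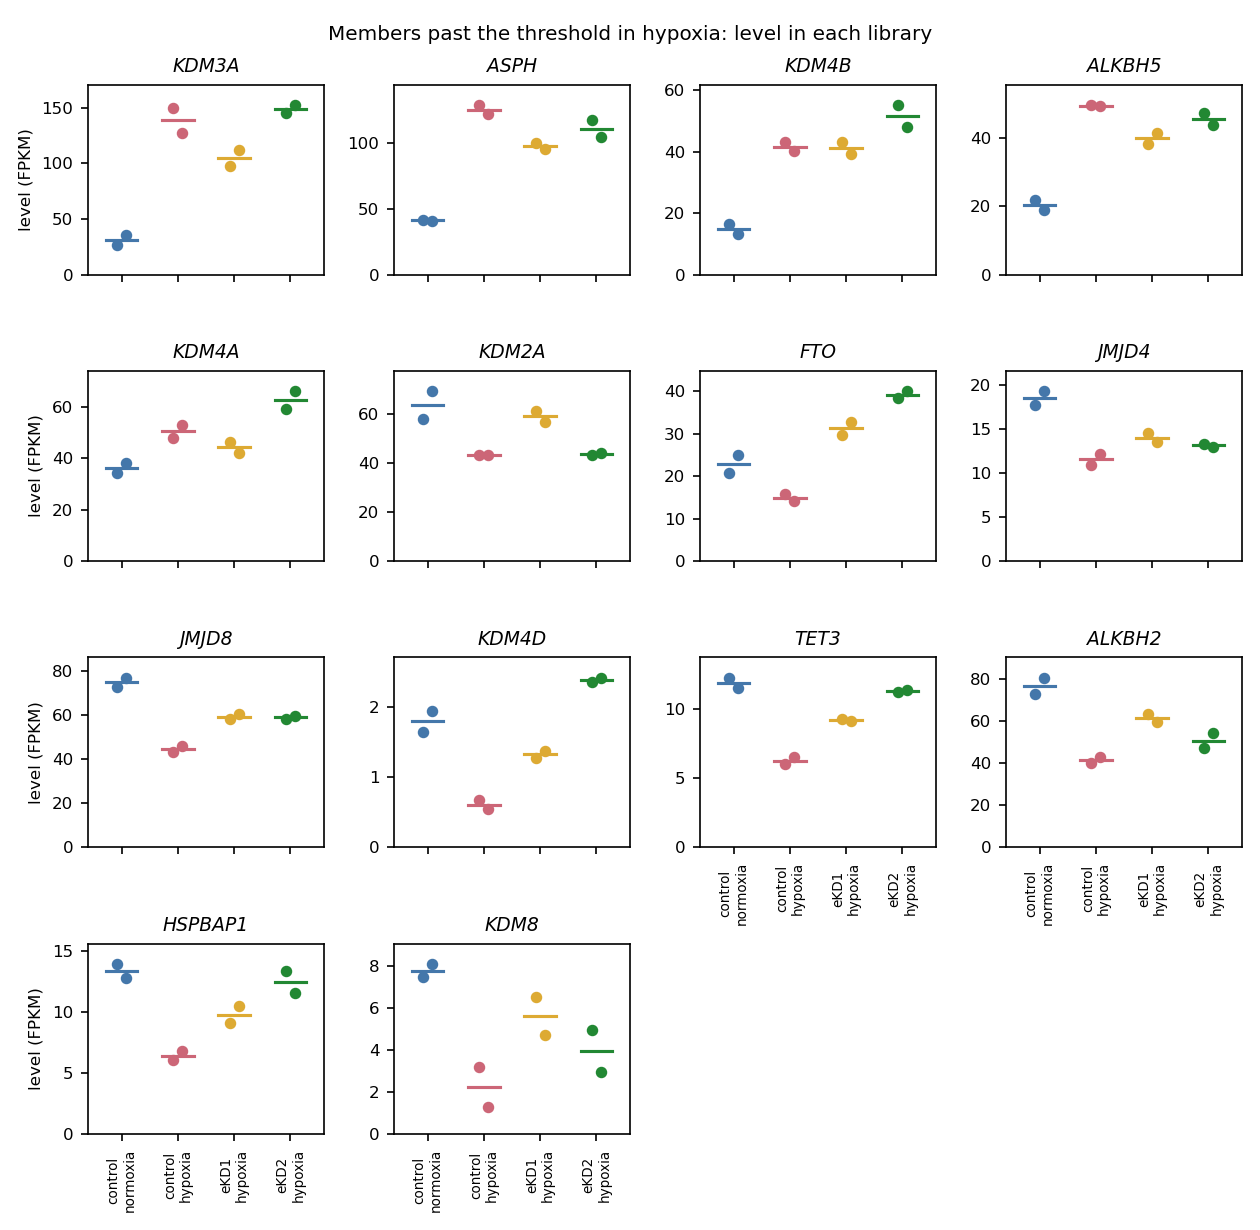
Level in FPKM (vertical axis, linear and starting at 0) of the 14 members that passed in control hypoxia against control normoxia, ordered from the largest rise to the largest fall on the log2(FPKM + 1) scale. Points are single libraries, 2 for each of the 4 groups, and bars are group means. FTO and KDM4D were higher in both eKD2 libraries than in both normoxia libraries, while JMJD8 and TET3 lay between the 2 control groups in eKD1.

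Promoter sequence is shown for the 3 called members with the largest rise that have a printable entry, KDM3A, KDM4B and ALKBH5, and for KDM8, the largest fall, because the hypoxia-inducible factors bind a short core, ACGTG or GCGTG. The windows are RefSeq sequence of GRCh38.p14 from 250 bases before to 50 bases after the annotated start, 5′ to 3′ on the gene's strand, and capitals mark the core on either strand. That build differs from the GRCh37 coordinates of the genes above.
KDM3A, chr2:86441121-86441420, plus strand: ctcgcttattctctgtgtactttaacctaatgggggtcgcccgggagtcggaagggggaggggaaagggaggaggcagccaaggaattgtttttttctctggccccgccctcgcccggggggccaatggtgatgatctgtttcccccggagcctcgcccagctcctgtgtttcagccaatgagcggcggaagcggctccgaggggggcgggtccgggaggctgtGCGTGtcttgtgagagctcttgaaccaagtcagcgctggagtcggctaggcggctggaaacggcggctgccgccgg
KDM4B, chr19:4968863-4969162, plus strand: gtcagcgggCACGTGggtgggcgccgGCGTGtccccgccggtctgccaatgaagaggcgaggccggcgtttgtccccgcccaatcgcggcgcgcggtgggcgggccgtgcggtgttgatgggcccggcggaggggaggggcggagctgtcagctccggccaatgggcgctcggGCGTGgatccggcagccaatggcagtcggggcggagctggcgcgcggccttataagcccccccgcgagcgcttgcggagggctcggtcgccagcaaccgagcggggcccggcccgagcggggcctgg
ALKBH5, chr17:18183578-18183877, plus strand: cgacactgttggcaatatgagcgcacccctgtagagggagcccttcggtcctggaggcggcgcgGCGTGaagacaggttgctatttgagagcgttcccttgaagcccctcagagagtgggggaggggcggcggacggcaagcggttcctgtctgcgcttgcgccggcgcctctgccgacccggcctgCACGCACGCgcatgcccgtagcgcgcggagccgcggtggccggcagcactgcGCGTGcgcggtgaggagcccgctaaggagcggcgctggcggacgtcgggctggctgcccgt
KDM8, chr16:27203276-27203575, plus strand: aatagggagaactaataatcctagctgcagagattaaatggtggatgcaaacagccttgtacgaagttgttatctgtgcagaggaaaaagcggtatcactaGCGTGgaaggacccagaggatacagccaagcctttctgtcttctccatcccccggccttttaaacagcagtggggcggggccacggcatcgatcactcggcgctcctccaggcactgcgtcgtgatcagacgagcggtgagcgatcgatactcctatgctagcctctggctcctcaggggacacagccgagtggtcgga

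The KDM3A window held 1 match, KDM4B and ALKBH5 held 4 each, and KDM8 held 1. A palindromic CACGTG, as in KDM4B, reads as the core on both strands and was counted on each, and the run CACGCACGC in ALKBH5 holds 2 overlapping matches on the other strand. The core is common: 48.4% of the 35116 promoter windows in the RefSeq table held at least 1 match on either strand. Of the 47 windows of the 31 members found in the table, 66% held one. A match was present in some window of all 4 matched members that rose, of 7 of the 9 that fell and of 13 of the 18 that did not pass. Some members have more than 1 window, so these counts per gene cannot be set against the share per window. The share of all genes with a match in some window was not computed. FTO and KDM4D, both of which fell, had no match in these 300 bases. A second annotated KDM3A start lies within the first window, and its own window holds the same single match.

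Other lists of genes were read beside the members. Of 19 further 2-oxoglutarate oxygenases and JmjC proteins outside this set 14 were tested in control hypoxia against normoxia. Of these, 4 rose and 1 fell, 5 of 14 or 35.7% against 32.2% of all genes tested, with a median log2 change of 0.06. PHYH, the peroxisomal phytanoyl-CoA hydroxylase, had the largest rise among them with a log2 change of 1.48, followed by HR, a demethylase-like corepressor, with 0.84 and ALKBH7 with 0.73. Among the HIF hydroxylases, EGLN1 rose by a log2 change of 2.11, from 11.1 and 11.9 FPKM to 50.6 and 55.5 FPKM, while EGLN2 and HIF1AN did not pass and EGLN3 was listed at 0 in all 4 control libraries. Neither of the 2 FAD-dependent lysine demethylases, KDM1A and KDM1B, which use oxygen but not 2-oxoglutarate, passed. A further list held 24 tested genes of methyltransferases, which lay down methyl marks, and of partner subunits such as WTAP. Of these 24 genes 10 fell, none rose and 14 did not pass, where 16% of all genes tested fell and 16.2% rose. Their median log2 change was -0.38, against 0.01 over all genes. EHMT1 had the largest fall with a log2 change of -2.91, from 179 and 383 FPKM to 34.5 and 33.4 FPKM, with normoxia libraries that differed widely from each other, and NSD1 (-1.16) and KMT2D (-1.13) followed. Scaling to equal totals moved the median of all genes from 0.01 to -0.19. Of 8 enzymes that make or use 2-oxoglutarate or remove its reduced form 2-hydroxyglutarate, IDH2 and MDH2 rose with log2 changes of 0.75 and 0.44.

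In hypoxia, 5 members were higher in eKD2 than in control cells, and no member passed in eKD1. The eKD comparisons use the same 2 control hypoxia libraries as the hypoxia comparison above, and a chance deviation of those libraries would move all of them, so levels are given side by side and no relation between the changes was computed.

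In eKD1 none of the 33 members passed, where 10 of 15372 genes or 0.0651% did (limma, Benjamini-Hochberg adjustment). At an unadjusted p under 0.05, 12 members were higher and 3 were lower, a total of 15 of 33 where 21.7% of all genes tested reached that level. The median log2 change was 0.20 over the members and 0.00 over all genes. The eKD1 libraries lay above both control hypoxia libraries for 18 members, below for 8 and overlapping for 7. Of the 15372 genes tested 4246 lay above and 3992 below in this way. FTO was at 29.7 and 32.9 FPKM in eKD1 against 15.8 and 14.2 FPKM in control hypoxia, higher also than the 20.8 and 25.1 FPKM of normoxia. Its log2 change was 1.01 ± 0.11 (SE, n = 2 and 2, limma adjusted p = 0.102). KDM8 had 6.48 and 4.72 FPKM and a log2 change of 1.09, but with an interval of 0.02 to 2.15. On the other side, ASPH had 99.8 and 95.4 FPKM (log2 change -0.35), KDM3A 97.4 and 111.7 FPKM (-0.40) and ALKBH5 38.2 and 41.5 FPKM (-0.30), all below both control hypoxia libraries and all above both normoxia libraries. KDM4B overlapped control hypoxia with 43.2 and 39.3 FPKM. In the single fit of all 8 libraries 4 members passed, where 4.95% of all genes did, and all 4 were higher: FTO (adjusted p = 0.0152), JMJD8 (0.0323), ALKBH2 (0.0347) and JMJD6 (0.0355).

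In eKD2, 5 of the 33 members rose and none fell, where 9.61% of all genes passed and 5.8% rose. The median log2 change was 0.31 over the members and 0.05 over all genes, and the eKD2 libraries lay above both control hypoxia libraries for 25 members, below for 2 and overlapping for 6. Of all genes tested 35.8% lay above and 26.4% below in this way. FTO had the largest rise of the members called on the log2(FPKM + 1) scale, at 38.4 and 40.0 FPKM, with a log2 change of 1.33 ± 0.09 (SE, n = 2 and 2, limma adjusted p = 0.0273). Both eKD2 libraries were above both normoxia libraries as well, so FTO was highest in eKD2 of all 4 groups. KDM4D was at 2.36 and 2.42 FPKM in eKD2 against 0.675 and 0.550 FPKM in control hypoxia, a log2 change of 1.07 ± 0.14 (SE, adjusted p = 0.0375), and it also exceeded both normoxia libraries. By the ratio of mean FPKM it was KDM4D that differed most from control hypoxia, 3.90-fold against 2.62-fold for FTO. TET3 was at 11.3 and 11.4 FPKM, just under the 12.3 and 11.6 FPKM of normoxia, and rose by a log2 change of 0.76 ± 0.11 (SE, adjusted p = 0.0419). HSPBAP1 had 13.3 and 11.5 FPKM, which overlapped the 13.9 and 12.8 FPKM of normoxia, and a log2 change of 0.86 ± 0.14 (SE, adjusted p = 0.0468). JMJD8 had 58.5 and 59.9 FPKM, between the 2 control groups, and a log2 change of 0.40 ± 0.07 (SE, adjusted p = 0.0486). None of these 5 passed without the variance trend, where 28 of all genes did, and JMJD8 did not pass after median-of-ratios rescaling. Of all genes called in eKD2 60.3% were higher, against 46.3% after that rescaling and 77.5% with equal totals. In the single fit of all 8 libraries the same 5 and KDM5B and KDM6A passed, where 16.9% of all genes did. With 1 of the 4 libraries left out of that fit FTO passed each time, with log2 changes of 1.26 to 1.41, TET3 was lost without the first control hypoxia library, HSPBAP1 was lost without either control hypoxia library or the first eKD2 library, and KDM4D and JMJD8 were lost each time.

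The 5 members that rose in control hypoxia were above both normoxia libraries in eKD2. They had been picked as higher in control hypoxia than those same normoxia libraries. The share of all genes placed in this way was not computed, so the count is only a description. KDM3A had 145.1 and 152 FPKM and overlapped control hypoxia, with a log2 change of 0.11 and an interval of -0.18 to 0.39. KDM4B had 55.1 and 47.9 FPKM (log2 change 0.30) and KDM4A 59.1 and 66.0 FPKM (0.31), each above both control hypoxia libraries without passing. ASPH with 117 and 104 FPKM (-0.18) and ALKBH5 with 47.4 and 43.9 FPKM (-0.12) were below both without passing. KDM2A, at 43.3 and 44.1 FPKM, overlapped control hypoxia in eKD2, whereas in eKD1 it was at 61.6 and 56.7 FPKM, which overlapped normoxia. ALKBH2 was at 63.5 and 59.8 FPKM in the eKD1 libraries and at 47.0 and 54.5 FPKM in those of eKD2, above control hypoxia and below normoxia in both, and JMJD4 at 14.5 and 13.5 FPKM and 13.3 and 12.9 FPKM was placed likewise. KDM8 in eKD2 was at 4.94 and 2.96 FPKM, which overlapped control hypoxia. All 3 H3K4 demethylases were above both control hypoxia libraries in eKD2, with log2 changes of 0.79 for KDM5A, 0.51 for KDM5B and 0.42 for KDM5C, and none passed. That position was shared by 35.8% of all genes tested. KDM6A, at 14.2 and 16.1 FPKM against 8.84 and 5.45 FPKM, had a log2 change of 1.02 (adjusted p = 0.0868).

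**Figure D3:**
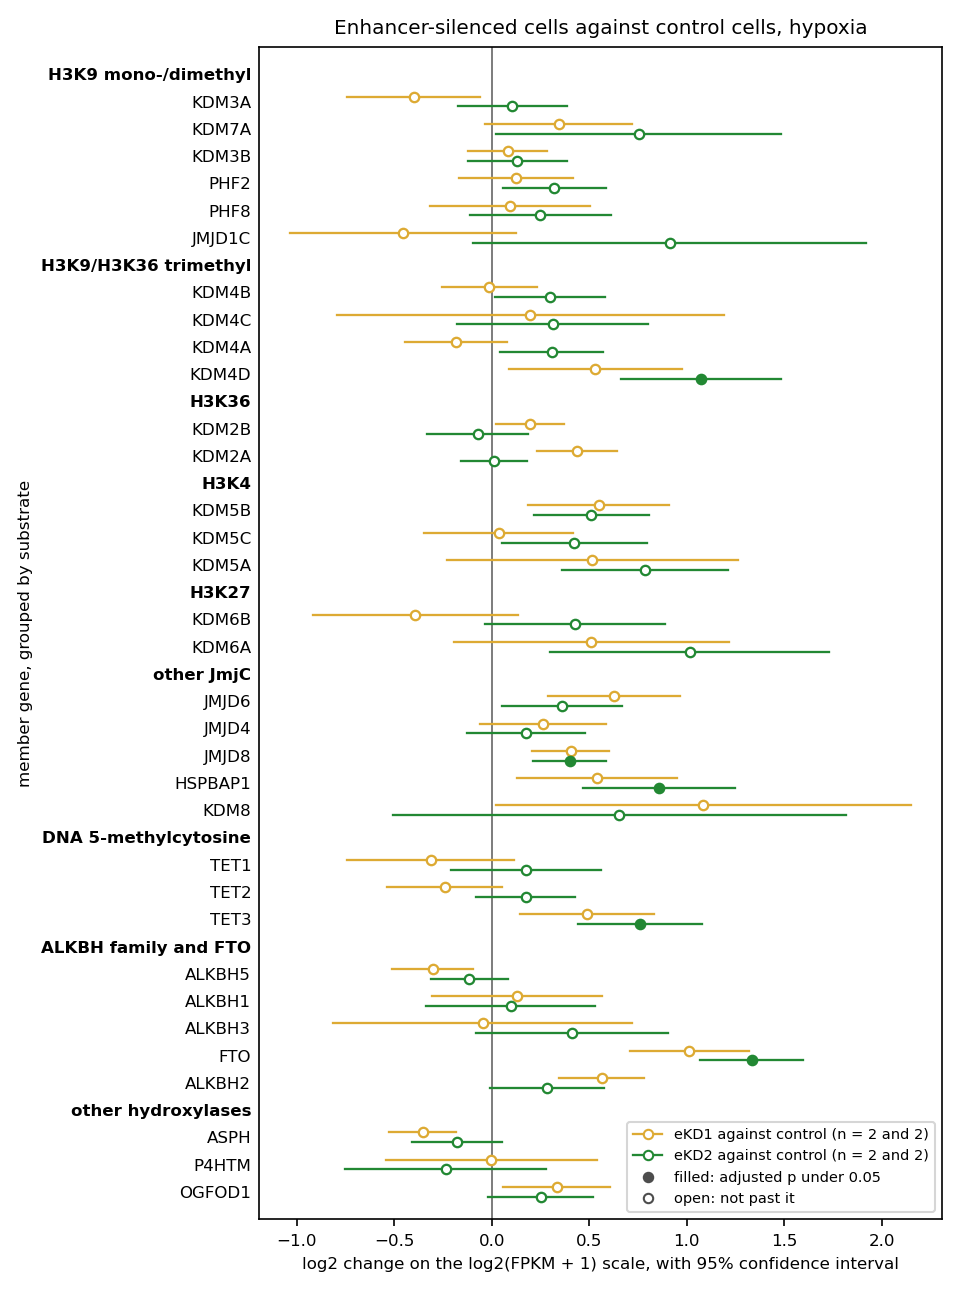
Change of the 33 members in eKD1 and in eKD2 against the same 2 control libraries, all in hypoxia, grouped by substrate. The horizontal axis is the difference on the log2(FPKM + 1) scale, lines are 95% confidence intervals from limma, and filled points passed an adjusted p of 0.05. The 5 filled points are eKD2 values for FTO, KDM4D, HSPBAP1, TET3 and JMJD8, and no eKD1 point is filled.

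The 2 silenced populations were also set against each other, a comparison that uses no control library. No member passed, where 62 genes or 0.403% did (limma), and 13 members reached an unadjusted p under 0.05, 10 higher and 3 lower in eKD2, where 23.6% of all genes did. In the single fit of all 8 libraries 4 members passed, where 9.05% of all genes did. JMJD1C, KDM6B and KDM4A were higher in eKD2 and KDM2A was lower. For 5 members both eKD1 libraries lay on one side and both eKD2 libraries on the other side of control hypoxia, an arrangement shown by 7.5% of all genes tested. For FTO the log2 difference of eKD2 over eKD1 was 0.32, with an interval of 0.07 to 0.57 and an adjusted p of 0.158.

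Summed over substrates, the enzymes of mono- and dimethylated H3K9 had 112.6 and 111.8 FPKM in normoxic and 219.9 and 200.7 FPKM in hypoxic control cells. The sum was 173.7 and 190.0 FPKM for eKD1 and 241.1 and 244.3 FPKM for eKD2. KDM3A made up most of that sum in all hypoxic libraries. The KDM4 sum was 57.0 and 61.0 FPKM in normoxic and 99.7 and 102.7 FPKM in hypoxic control cells, 98.0 and 96.9 FPKM for eKD1 and 126 and 129 FPKM for eKD2. The other JmjC proteins went the other way, with 133.9 and 137.0 FPKM in normoxic and 79.3 and 84.7 FPKM in hypoxic control cells, 114.0 and 117.8 FPKM for eKD1 and 112.2 and 109.7 FPKM for eKD2. The H3K4 sum overlapped between the 2 control groups, at 106.4 and 125.7 FPKM in normoxia and 120.7 and 111.1 FPKM in hypoxia. These sums are descriptions and were not tested.

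**Figure D4:**
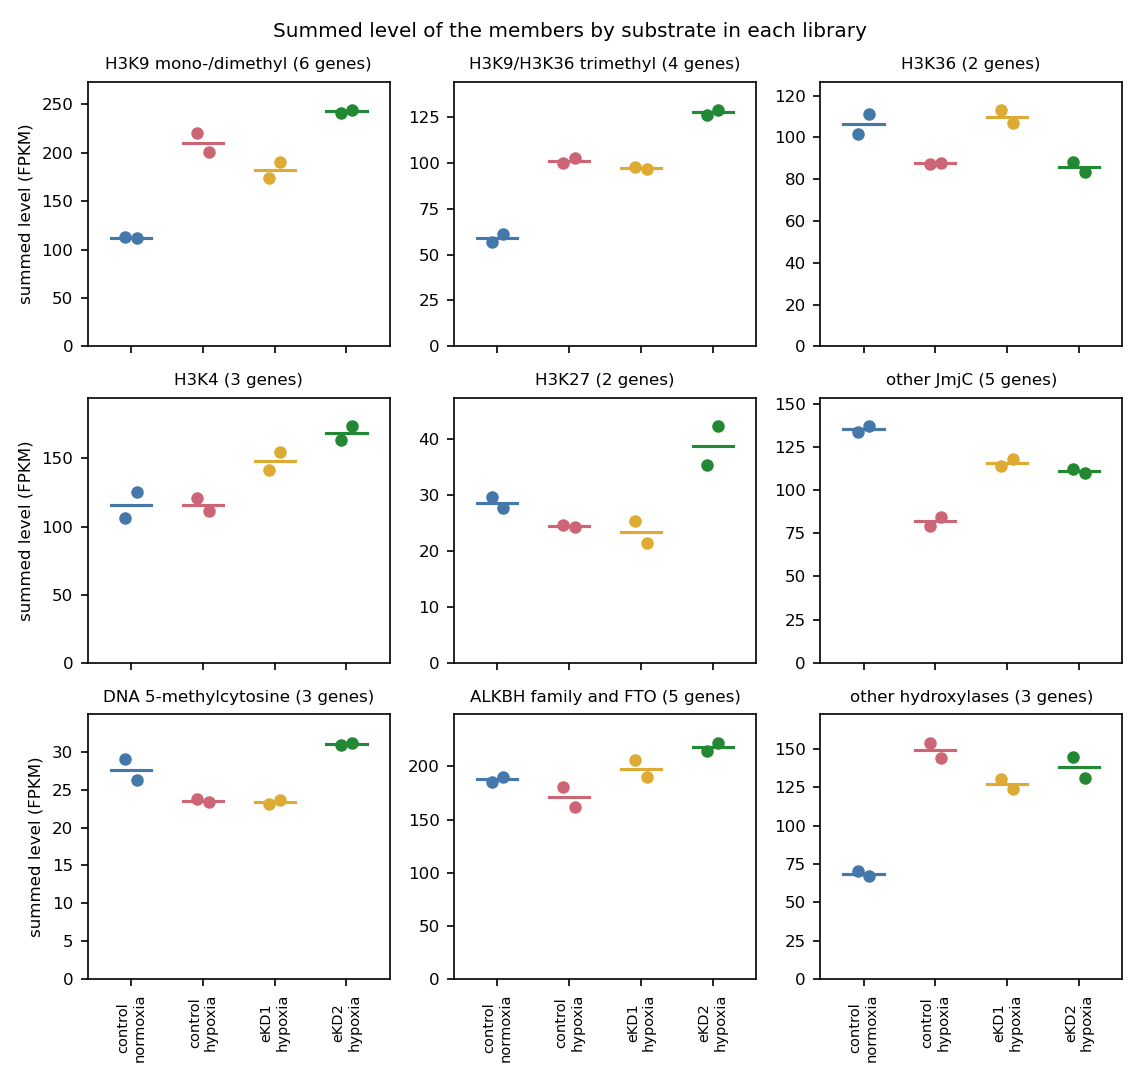
Summed level in FPKM (vertical axes, linear and starting at 0) of the members of each substrate group in every library. Points are single libraries, 2 for each of the 4 groups, and bars are group means. The H3K9, KDM4 and other hydroxylase sums are higher in all hypoxic libraries than in normoxia, and the other JmjC sum is lowest in control hypoxia.

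At the level of single genes, 31 of the 33 members were at or above 1 FPKM in all 8 libraries, and 26 had a mean of at least 10 FPKM. The exceptions were KDM4D and TET1. The least abundant of the remaining members were P4HTM, with 1.47 to 4.10 FPKM, and KDM8, with 1.27 to 8.07 FPKM. Among members that passed in no comparison, KDM5C ranged over 47.3 to 75.4 FPKM, ALKBH3 over 41.04 to 69.8 FPKM and KDM2B over 39.3 to 51.7 FPKM. OGFOD1 ranged over 19.3 to 27.3 FPKM, PHF8 over 10.5 to 18.9 FPKM, PHF2 over 11.3 to 15.6 FPKM, ALKBH1 over 8.79 to 14.5 FPKM and KDM7A over 6.75 to 22.8 FPKM.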

How the data were processed

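RNA was sequenced in 8 SK-N-MC libraries, 2 per group. Per the labels and the study's methods, the authors checked reads with FastQC, aligned them with STAR to hg19 (GRCh37) and made gene-level FPKM values with Cuffnorm. The deposited table holds FPKM, not counts. The count model the authors used needs read counts, so the pairwise comparisons were fitted with limma (3.58.1, R 4.3.3) on log2(FPKM + 1), with a variance trend, over the 15372 genes at 1 FPKM or more in at least 2 libraries, and Benjamini-Hochberg adjustment over all of them. The fit was tested on simulated data. FPKM keep no read totals, so the number of replicates limits the precision, and no counting interval is given. Values of near-identical paralogs depend on how the authors' counting shared reads.

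Positions and exon overlaps come from GENCODE v44 lifted to GRCh37, promoters from RefSeq. Members with a log2 change of at least 0.5 in a comparison where they passed are given by library, and from other lists at most the 3 largest called changes are named. The members and lists were chosen with earlier results of these data known. Alternatives were the pseudocount, the filter, the scaling, the samples in the fit, a replicate block, the variance model and leaving out each library, and a fit of all 8 libraries without each one was added after seeing the data.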

Additional observations from a re-analysis of the deposited data

Results flagged for a closer look

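For 5 members both eKD1 libraries lay below, and both eKD2 libraries above, both control hypoxia libraries: JMJD1C, KDM6B, KDM4A, TET1 and TET2. Of all 15372 genes tested 7.5% showed this or the opposite arrangement. JMJD1C was at 2.92 and 2.96 FPKM in eKD1, 3.68 and 5.26 FPKM in control hypoxia and 12.5 and 6.68 FPKM in eKD2, so the 2 eKD2 libraries themselves differed widely. KDM6B was at 14.8 and 11.2 FPKM in eKD1, 15.7 and 18.8 FPKM in control hypoxia and 21.1 and 26.2 FPKM in eKD2. The log2 difference of eKD2 over eKD1 was 1.37 for JMJD1C, 0.82 for KDM6B, 0.49 for KDM4A, 0.49 for TET1 and 0.42 for TET2, and the direct test of that difference passed for none of them (limma adjusted p = 0.135, 0.135, 0.112, 0.182 and 0.137). In the single fit of all 8 libraries JMJD1C, KDM6B and KDM4A passed (adjusted p = 0.0422, 0.0438 and 0.0381), and with any 1 of the 4 silenced libraries left out of that fit none did. Without the first eKD2 library the JMJD1C difference was 0.96, and without the second it was 1.78.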

How the results depend on the processing

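Of the 132 member changes (33 members in 4 comparisons) none of the 19 that passed changed sign under any alternative run, and 22 of the 113 that did not pass did, all with a log2 change of at most 0.27 in size. TET2 in hypoxia went from 0.05 to as low as -0.18. In control hypoxia against normoxia 14 members passed, against 8 with no filter and 8 with the replicate block, and equal totals gave 17 (4 higher, 13 lower, with 28.4% of all called genes higher instead of 50.3%). Of all genes tested 4946 of 15372 passed, against 3024 of 27155 with no filter, 2570 of 15372 with the replicate block and 5510 of 15372 with equal totals. Of the 14, FTO, HSPBAP1, JMJD4, KDM2A, KDM4A, KDM4D, KDM8 and TET3 did not pass with the replicate block. The 8 that passed with the block therefore included members outside the 14. KDM3A, ASPH, KDM4B, ALKBH5, ALKBH2 and JMJD8 passed in all 8 alternatives that keep every library. In eKD1 0 members passed, 4 in the single fit of all libraries, where 10 and 761 of all genes tested did. In eKD2 5 members passed, against 1 with no filter, 0 with the replicate block and 0 without the variance trend. Of all genes tested 1477 of 15372 passed there, against 853 of 27155 with no filter, 0 with the block and 28 without the trend. In eKD2 against eKD1 0 members passed, 4 in the single fit, where 62 and 1391 of all genes tested did. Fits of a pair of groups with 1 library left out called 0 genes of the whole table, so they bear on no member. With the spread shared over all libraries, leaving out 1 gave 12 to 15 members in hypoxia, 0 to 0 in eKD1, and 2 to 4 in eKD2, where it was 2 without either control hypoxia library, 3 without the first eKD2 library and 4 without the second; the lone library is assumed to vary like the other groups. Over all genes tested, too, fewer passed in each shared fit with 1 library left out than in the single fit of all libraries. The replicate numbers share only a number, with correlations of deviations between groups of -0.06 to 0.13, and the block leaves 1 residual degree of freedom. Median-of-ratios rescaling moved the median of all genes in eKD2 from 0.05 to -0.01 and the share of calls that were higher from 60.3% to 46.3%, and equal totals moved them to 0.14 and 77.5%. Read totals per library are unknown and depth was only estimated, highest in control hypoxia. Levels near 1 FPKM, as for KDM4D and TET1, are the least certain.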

Other observations

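Of the 14 further 2-oxoglutarate oxygenases and JmjC proteins tested, 3 passed in eKD2 against control hypoxia as well, or 21.4%, where 9.61% of all genes did. JARID2, a JmjC protein without demethylase activity that accompanies Polycomb complexes, had 26.2 and 27.1 FPKM in normoxic and 19.3 and 17.8 FPKM in hypoxic control cells. It had 29.0 and 30.04 FPKM in the eKD1 libraries and 33.6 and 33.1 FPKM in those of eKD2, where its log2 change over control hypoxia was 0.81 (limma adjusted p = 0.0305). RIOX2, a nucleolar JmjC hydroxylase, had 8.07 and 8.16 FPKM in hypoxic control cells against 14.8 and 17.1 FPKM in the eKD2 libraries, a log2 change of 0.89 (limma adjusted p = 0.0372). ALKBH4 was lower in eKD2, at 11.8 and 12.5 FPKM against 19.9 and 19.5 FPKM, a log2 change of -0.66 (limma adjusted p = 0.0385).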
